A study of Mus musculus with 17 samples.

Results

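Liver RNA of 10 of the 17 mice sequenced was compared: 6 libraries came from genetically Khdc3-null females of mixed ancestry (KO_star), and 4 came from genetically wild type females of the same mixed ancestry (WT_star). They were taken by the group and number in their titles, so no expression value entered that choice. Both groups had heterozygous parents and grandparents of which some were WT and some KO, and all were 8 weeks old. The KO_star animals carry the null allele, and the WT_star animals do not. The other 7 libraries came from Khdc3-null mice of KO ancestors (KO, n = 3) and from wild type mice of WT ancestors (WT, n = 4). They give a second comparison, in which genotype and ancestry change together. They also share the filter and the estimate of the spread with KO_star and WT_star. The labels name the tissue as liver and the cells as hepatocytes, and they give no litter, strain or batch.

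Khdc3, also called Filia, encodes a KH-domain protein of the subcortical maternal complex, an assembly of oocyte proteins that persists in the early embryo. It is a maternal-effect gene: what an embryo holds of its product comes from the oocyte. In KO_star against WT_star the mothers of both groups were heterozygous, so the comparison asks what the animal's own genotype does to liver RNA when parents and grandparents are alike. A targeted allele is passed on together with the stretch of chromosome around it, so the neighbours of Khdc3 on chromosome 9 are inherited with the genotype.

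The KO_star and WT_star libraries held between 17.6 and 26.4 M (mega) gene reads each. Khdc3 itself (chr9:73101836-73104438, GRCm38) had 7 reads in the 6 KO_star libraries together, which is 0.055 per M reads with an exact 95% Poisson interval of 0.0221 to 0.113. The 4 WT_star libraries held 4 reads, or 0.0485 per M reads (0.0132 to 0.124). With at most 4 reads in a library, Khdc3 RNA cannot be used to check the genotype labels in liver. The 20 hepatocyte markers held a mean log2(value + 1) of 15.73 to 15.97 in KO_star and 15.77 to 15.80 in WT_star libraries. Their summed values were 3172630 to 3819391 in KO_star and 2949571 to 3190484 in WT_star libraries.

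In 3 libraries the RNA stood apart from that of their groups. The library labelled KO_star 13 differed from the other 5 KO_star libraries at genes near Khdc3, as given below for Wdr72 and Aph1c. The cause of this difference was not tested. KO_star 16 held RNA of pancreatic acinar cells, which make digestive enzymes: 29 of 30 acinar markers other than Cela1 were above 0, with a summed value of 7771. The same sum was 17.7 to 44.6 in the other KO_star libraries and 6.77 to 27.1 in the WT_star libraries. In KO_star 16 the lipase gene Pnlip was at 785.4 and the procarboxypeptidase gene Cpa1 at 525.4, and both were at 0 in the other KO_star and in the WT_star libraries. KO_star 16 was also the highest of the 10 libraries for 41 of 43 cell division genes. WT_star 33 was the highest of the 10 for 20 of 29 acute phase genes, which the liver switches on in inflammation. Lcn2, an iron-scavenging acute phase protein, was at 36288 there, against 399.1 to 1067 in the other WT_star libraries.

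With all 6 KO_star and 4 WT_star libraries, 0 of 16157 genes tested passed the adjusted threshold of 0.05 (0% called). The deposited values, whole reads per gene scaled by a size factor for each library, were tested as log2(value + 1) with limma and Benjamini-Hochberg adjustment over all genes. The smallest adjusted p was 0.125. At an unadjusted p under 0.05 there were 1185 genes, 7.33% of those tested, of which 646 were higher (4% of genes tested) and 539 lower (3.34%) in KO_star. The libraries of KO_star and WT_star did not overlap for 223 genes (1.38%). edgeR on the recovered reads also called 0, with 1240 at an unadjusted p under 0.05, and DESeq2 called 62, of which 34 were higher. Without the library labelled KO_star 13 limma called 20 genes, 13 of them higher, without WT_star 33 it called 6, and without KO_star 12 it called 1. The labels do not tell whether animals of 1 group were litter mates, and the p-values cover no more than the spread among these samples.

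Leaving out predicted genes, the 10 genes with the smallest p in limma were Col26a1, Smurf1, Kcnn1, Glyctk, Wdr72, Acat3, Foxa3, Qprt, Kdm3a and Ppa1. None passed the threshold in limma with all libraries. DESeq2 with all libraries called all 10, with an adjusted p from 1.8e-10 for Wdr72 to 0.0034 for Kdm3a and Ppa1. For 9 of the 10, all but Wdr72, the KO_star and WT_star libraries did not overlap, against 1.38% of all genes tested. The 10 were picked by p from these same libraries, so this separation adds no support. Col26a1 (chr5:136741759-136883209), which encodes a collagen, was at 4.73 to 21.3 with a median of 8.70 in KO_star and at 48.4, 61.85, 34.1 and 74.3 in WT_star libraries 20, 21, 33 and 34. Its log2 fold change was -2.43 (SE 0.39, adjusted p = 0.125), and its adjusted p was 0.0191 without KO_star 12, 0.0167 without KO_star 13 and 0.0394 without WT_star 33. It did not pass with any other single library left out. Without KO_star 13 and the KO_star library with acinar RNA together, its log2 fold change was -2.48, and it missed the threshold (adjusted p = 0.052). In KO against WT it was called, at 3.55 to 11.2 in KO and 28.7 to 79.1 in WT (-2.47, adjusted p = 0.0076). Every KO_star library was below every WT_star library for this gene, KO_star 13 included.

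Among the others, Smurf1, a ubiquitin ligase of the BMP and TGF-beta pathway, was at 460.4 to 572.6 in KO_star and 344.5 to 436.4 in WT_star (log2 fold change 0.46, SE 0.08, adjusted p = 0.139). Kdm3a, a histone demethylase, was at 516.7 to 590.8 in KO_star and 404.0 to 485.8 in WT_star (0.35, SE 0.07, adjusted p = 0.139). Kcnn1, a calcium-activated potassium channel, was at 97.5 to 120.7 in KO_star and 138.8 to 180.7 in WT_star (-0.56, SE 0.10, adjusted p = 0.139). These 3 genes had narrow ranges in both groups. The values of 4 metabolic enzyme genes were lower in KO_star by 0.28 to 0.47 on the log2 scale. The glycerate kinase gene Glyctk, on chromosome 9 at 33.05 Mb from Khdc3, was at 4774 to 5751 in KO_star and 6274 to 8184 in WT_star. Qprt, which makes the nicotinic acid mononucleotide used for NAD, was at 2788 to 3035 in KO_star and 3299 to 3759 in WT_star. Acat3, a cytosolic acetyl-CoA acetyltransferase of the thiolase family, was at 2762 to 3227 in KO_star and 3667 to 4137 in WT_star, and the inorganic pyrophosphatase gene Ppa1 at 2233 to 2874 in KO_star and 3101 to 3320 in WT_star. Glyctk was also lower in KO, at 4888 to 5648, than in WT, at 5819 to 7549 (-0.36, adjusted p = 0.0836). Qprt was at 2493 to 2522 in KO and 2926 to 3275 in WT. For Acat3 and Ppa1 the KO and WT libraries overlapped.

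Wdr72 and Aph1c lie within 10 Mb of Khdc3, and their values in KO_star 13 stood apart from those in the other KO_star libraries. Wdr72 (chr9:74110356-74283308, 1.01 Mb from Khdc3) encodes a WD-repeat protein known for its part in tooth enamel formation. It was at 268.6 in KO_star 12, 461.6 in KO_star 14, 487.4 in KO_star 16, 419.7 in KO_star 17 and 341.7 in KO_star 29, and at 2.11 in the library labelled KO_star 13. The WT_star libraries 20, 21, 33 and 34 were at 0, 0.97, 2.35 and 2.06, each no more than the value of 3 reads, which is 2.38 to 3.55. In this gene 5 KO_star libraries were far above every WT_star library, and KO_star 13 lay within the WT_star range.

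Aph1c (chr9:66814994-66834726, 6.27 Mb from Khdc3) encodes a subunit of gamma-secretase, the protease that cuts Notch and amyloid precursor protein inside the membrane. It was at 52.7, 26.5, 62.6, 156.3 and 52.0 in KO_star 12, 14, 16, 17 and 29, and at 373.8 in KO_star 13. The WT_star libraries 20, 21, 33 and 34 were at 359.2, 346.9, 336.4 and 311.5. KO_star 13 was therefore above all 4 WT_star libraries for a gene that was lower in the other 5 KO_star libraries. Aph1c has a close relative, Aph1b, beside it, and the authors' counting may divide shared reads between them. With all 10 libraries the log2 fold changes were 6.36 (SE 1.15, adjusted p = 0.139) for Wdr72 and -2.06 (SE 0.53, adjusted p = 0.346) for Aph1c.

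**Figure D1:**
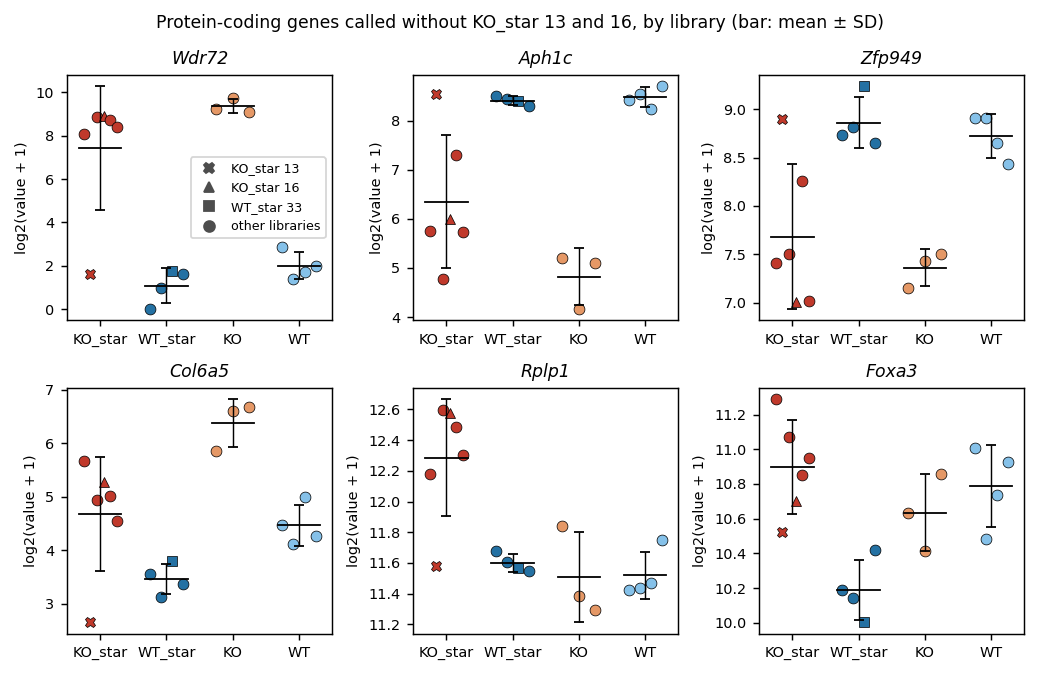
Deposited values as log2(value + 1) for 6 protein-coding genes in the KO_star (n = 6), WT_star (n = 4), KO (n = 3) and WT (n = 4) libraries, 1 point per library, with the mean and SD of each group. The cross for KO_star 13 lies at the level of the WT_star points or beyond them for Wdr72, Aph1c, Zfp949, Col6a5 and Rplp1, and above them for Foxa3.

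Without KO_star 13 and KO_star 16, 13 of 16022 genes changed between 4 KO_star and 4 WT_star libraries (0.0811% called), 10 higher and 3 lower in KO_star. At an unadjusted p under 0.05 there were 1057 genes (6.60%). The libraries of these groups did not overlap for any of the 13 genes, which is the case for 3.4% of all genes tested. The genes were called from these same libraries, so this separation adds no support to the calls. Of the 13 genes, 8 lie on chromosome 9, which holds 5.54% of the genes tested, and the nearest to Khdc3 was Wdr72. The 13 comprised 6 protein-coding genes, 4 processed pseudogenes and 3 long non-coding RNA genes. edgeR called 10 genes, all among these 13, and DESeq2 called 67, which included all 13. KO_star 13 and 16 were left out because of their RNA, KO_star 13 for an odd genotype marker, so the difference of genes next to Khdc3 in this comparison is no independent evidence that KO_star 13 is the exception. Leaving out 1 more library moved the count to between 2, without WT_star 20, and 32, without WT_star 33. With only the 8 libraries compared in the fit, 8 genes were called, 6 of them among the 13. The count was also lower by over 1.5 times without KO_star 12 (6 genes), KO_star 14 (3), KO_star 29 (6) and WT_star 21 (5).

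Wdr72 was the gene with the smallest p, at 372.9 ± 85.5 (SD, n = 4) in KO_star and 1.35 ± 1.08 (SD, n = 4) in WT_star, a log2 fold change of 7.43 (adjusted p = 2.4e-08, SE 0.37). This fold rests on a WT_star level of a few reads at most and depends on the pseudocount. With all KO_star libraries the main limma fit did not call Wdr72, and KO_star 13 was at 2.11 there. The small p that limma gives here thus depends on leaving out that library, which was left out for its RNA. With all KO_star libraries, DESeq2 called Wdr72 (log2 fold change 7.99, adjusted p = 1.8e-10). Limma with library weights also called it (6.68, adjusted p = 0.0413). Aph1c fell by 2.52 on the log2 scale (SE 0.39, adjusted p = 0.0247), to 71.9 ± 57.6 in KO_star, against 338.5 ± 20.3 in WT_star (SD, n = 4 each). Zfp949 (chr9:88548020-88571061, 15.4 Mb from Khdc3), a zinc finger protein gene, was at 169.3, 180.0, 306.0 and 128.9 in KO_star 12, 14, 17 and 29. It was at 424.6, 451.3, 604.6 and 402.2 in WT_star 20, 21, 33 and 34, and it fell by 1.31 on the log2 scale (SE 0.21, adjusted p = 0.0247). Every one of these 4 KO_star libraries was below every WT_star library for both Aph1c and Zfp949.

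Col6a5 (chr9:105856078-105960643, 32.8 Mb from Khdc3), which encodes a chain of the extracellular matrix protein collagen VI, was at 49.7, 29.6, 31.3 and 22.5 in KO_star 12, 14, 17 and 29. It was at 10.8, 7.73, 12.9 and 9.28 in WT_star 20, 21, 33 and 34, a rise of 1.58 on the log2 scale (SE 0.28, adjusted p = 0.0484). Rplp1 (chr9:61913284-61914542, 11.2 Mb from Khdc3) encodes an acidic protein of the ribosomal stalk. Its values were 4641, 6180, 5725 and 5043 in KO_star 12, 14, 17 and 29, against 3279, 3119, 3038 and 2988 in WT_star 20, 21, 33 and 34. It rose by 0.79 on the log2 scale (SE 0.12, adjusted p = 0.0166). Ribosomal protein genes have many near-identical pseudogene copies, so reads of Rplp1 may be divided by the authors' counting. Of the 79 cytosolic ribosomal protein genes tested it was the only one called, and the median of the list was -0.0064 without KO_star 13 and 16, against -0.0003 over all genes tested.

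Foxa3 (chr7:19013284-19023538) was the only protein-coding gene called outside chromosome 9. It encodes a forkhead transcription factor of hepatocytes that acts on glucose and lipid genes. Foxa3 was at 2501, 2154, 1849 and 1973 in KO_star 12, 14, 17 and 29, and at 1168, 1129, 1024 and 1368 in WT_star 20, 21, 33 and 34. The log2 fold change was 0.85 (SE 0.13, adjusted p = 0.0166). KO_star 13 was at 1470 and KO_star 16 at 1663, both above the 4 WT_star libraries, so that for this gene all 6 KO_star libraries were higher than all 4 WT_star libraries. Of the 24 hepatocyte transcription factor genes tested, Foxa3 was the only one called, and 15 of the 24 were higher in KO_star without KO_star 13 and 16.

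Of the 13 genes, 7 were predicted or non-coding genes, which are named here after their values were seen. On chromosome 9, the non-coding genes 9430037G07Rik (log2 fold change 3.59, adjusted p = 0.0166) and C920006O11Rik (2.02, adjusted p = 0.0196) rose in KO_star. The non-coding gene Gm47789, 4.602 Mb from Khdc3, fell by 3.93 (adjusted p = 0.0087). It was at 0, 2.12, 2.84 and 2.36 in KO_star 12, 14, 17 and 29, and at 39.4, 38.7, 41.2 and 30.9 in WT_star 20, 21, 33 and 34. On other chromosomes, 4 processed pseudogenes rose: Gm5869 on chromosome 5 (1.33, adjusted p = 1.4e-06), Gm48338 on chromosome 13 (1.61, adjusted p = 0.0099), Gm6548 on chromosome 17 (0.83, adjusted p = 0.0166) and Gm13456 on chromosome 2 (0.46, adjusted p = 0.0196). Gm5869 was at 859.4, 816.3, 724.7 and 714.2 in KO_star 12, 14, 17 and 29, and at 305.5, 330.5, 291.7 and 303.2 in WT_star 20, 21, 33 and 34. A processed pseudogene is a copied-back transcript of another gene, so its reads may belong to that gene or to another copy, and these values are uncertain in that respect.

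The promoters of the 4 protein-coding genes that were called and have an entry in RefSeq's table (GRCm38.p6) are shown so that the genes that fell and the genes that rose can be set side by side. Each runs from 250 bases before to 50 after the annotated start, on the gene's strand. Capitals mark TATAAA (the TATA box), CCAAT and GGGCGG (the GC box) on either strand, and no matches overlap. Aph1c and Zfp949 fell, and Col6a5 and Foxa3 rose, in KO_star without KO_star 13 and 16. Their regions are chr9:66834657-66834956 (- strand) for Aph1c, chr9:88547770-88548069 (+ strand) for Zfp949, chr9:105960594-105960893 (- strand) for Col6a5 and chr7:19023490-19023789 (- strand) for Foxa3.
Aph1c: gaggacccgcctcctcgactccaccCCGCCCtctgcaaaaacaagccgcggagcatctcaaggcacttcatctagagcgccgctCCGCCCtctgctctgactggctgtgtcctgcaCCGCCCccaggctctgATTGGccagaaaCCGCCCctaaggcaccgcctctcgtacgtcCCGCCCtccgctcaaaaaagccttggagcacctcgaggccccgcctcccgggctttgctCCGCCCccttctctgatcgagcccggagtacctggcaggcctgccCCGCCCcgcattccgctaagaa
Zfp949: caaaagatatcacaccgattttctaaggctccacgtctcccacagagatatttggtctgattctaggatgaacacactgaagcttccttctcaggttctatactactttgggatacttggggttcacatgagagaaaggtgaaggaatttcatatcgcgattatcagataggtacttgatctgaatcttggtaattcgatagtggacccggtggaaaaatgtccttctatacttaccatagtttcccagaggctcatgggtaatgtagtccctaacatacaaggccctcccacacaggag
Col6a5: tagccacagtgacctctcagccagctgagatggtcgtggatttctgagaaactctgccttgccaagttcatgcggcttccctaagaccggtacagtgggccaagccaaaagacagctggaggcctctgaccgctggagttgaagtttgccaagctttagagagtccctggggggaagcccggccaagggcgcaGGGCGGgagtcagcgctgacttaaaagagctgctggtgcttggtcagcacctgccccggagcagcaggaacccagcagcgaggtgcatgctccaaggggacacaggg
Foxa3: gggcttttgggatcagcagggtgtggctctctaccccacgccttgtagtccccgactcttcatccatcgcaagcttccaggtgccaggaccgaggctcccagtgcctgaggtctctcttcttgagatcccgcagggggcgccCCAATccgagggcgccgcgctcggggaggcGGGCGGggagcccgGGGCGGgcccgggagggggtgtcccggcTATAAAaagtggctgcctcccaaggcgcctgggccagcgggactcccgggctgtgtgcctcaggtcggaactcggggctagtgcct

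The Aph1c window held 7 GC boxes and 1 CCAAT, and the Zfp949 window held none of the 3 motifs. Col6a5 held 1 GC box. The Foxa3 window was the only one of the 4 with TATAAA, which starts 36 bases before the annotated start, and it also held 1 CCAAT and 2 GC boxes. Of all 32851 promoters in the table, 13.6% held TATAAA, 37.4% CCAAT and 35.7% GGGCGG on either strand. The G and C content was 66.3% for Aph1c, 43.3% for Zfp949, 60.0% for Col6a5 and 69.0% for Foxa3, against a median of 52.7%. These matches are a description of letters and not of binding.

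The values of KO_star 13 and 16 at the 13 genes are given here as a description. KO_star 13 was left out for its level of a genotype marker, and the genes are those called once it was removed, so its place at them is in part what the choice used. Each was placed on a scale between the WT_star mean (0) and the mean of KO_star 12, 14, 17 and 29 (1) of log2(value + 1). KO_star 16 lay nearer the other KO_star libraries for 13 of 13 genes, with a median place of 0.97 and a range of 0.60 to 1.41. The library labelled KO_star 13 lay nearer WT_star for 13 of 13 genes, with a median of 0.014 and a range of -0.51 to 0.39. It was within the WT_star range, or beyond it on the far side, for 10 of the 13. Off chromosome 9, the processed pseudogene Gm5869 was at 311.5 in KO_star 13, against 305.5, 330.5, 291.7 and 303.2 in the WT_star libraries. Its reads may belong to another gene or copy, so the chromosome they come from is uncertain. Foxa3, also off chromosome 9, was at 1470 in KO_star 13, above the WT_star range of 1024 to 1368. KO_star 16 was outside the WT_star range for all 13. The genotype of KO_star 13 was not tested, as Khdc3 itself had too few reads in every library.

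**Figure D2:**
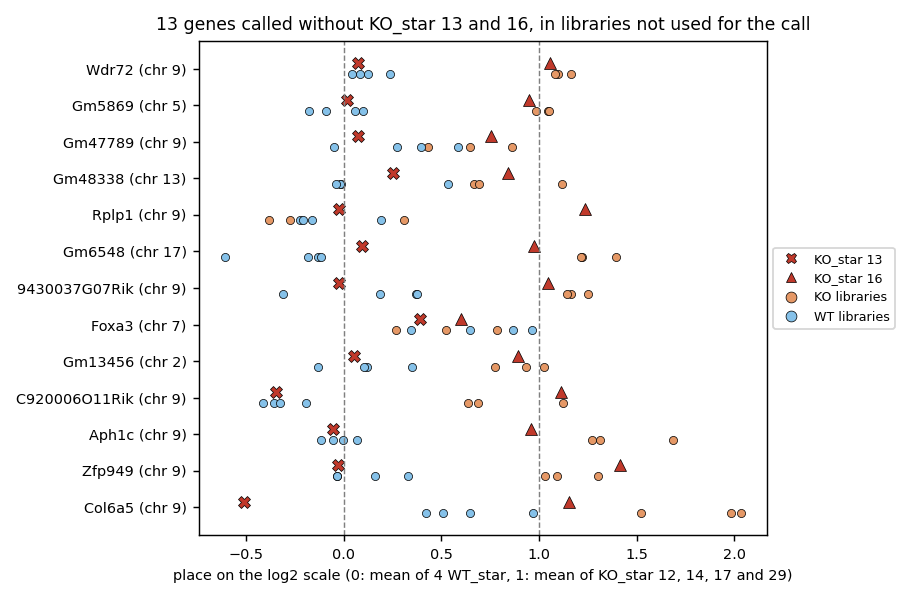
Place of the libraries KO_star 13 and KO_star 16, the 3 KO and the 4 WT libraries for the 13 genes called between KO_star 12, 14, 17 and 29 and the WT_star libraries, on a scale where the WT_star mean is 0 and the mean of those 4 KO_star libraries is 1. KO_star 13 lies at 0.39 or below and KO_star 16 at 0.60 or above for every gene.

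Chromosome 9 as a whole held more small p-values than the rest of the genome. With all KO_star libraries, 124 of 896 chromosome 9 genes (13.8%) had an unadjusted p under 0.05, against 1061 of 15261 genes (6.95%) on other chromosomes. Without KO_star 13 and 16 these shares were 134 of 888 (15.1%) and 923 of 15134 (6.10%). Within 10 Mb of Khdc3 the share was 22 of 146 (15.1%) with all KO_star libraries and 35 of 143 (24.5%) without KO_star 13 and 16. Of the 10 Mb windows, the 1 from 0 to 10 Mb on the higher-coordinate side of Khdc3 had the highest share without KO_star 13 and 16, 16 of 42 genes (38.1%), and 8 of 43 (18.6%) with them. With all KO_star libraries the window from 40 to 30 Mb on the lower-coordinate side was highest, at 11 of 40 genes (27.5%). Without KO_star 13 and 16 the share stayed at 9 of 40 (22.5%) in that window and at 5 of 32 (15.6%) from 50 to 40 Mb on the lower-coordinate side. On the higher-coordinate side it was 5 of 81 (6.17%) from 40 to 50 Mb and 2 of 20 (10%) from 50 to 60 Mb, beside 6.10% on the other chromosomes.

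Near Khdc3, 4 further genes had small p but did not pass the threshold in either comparison. Slc51b, a subunit of the bile acid exporter OST, was at 3.55 to 22.2 with a median of 8.22 in KO_star and 19.995 to 43.0 in WT_star (log2 fold change -1.62, adjusted p = 0.36, and -2.20, adjusted p = 0.0528, without KO_star 13 and 16). Aqp9, the hepatocyte glycerol channel, was at 6100 to 7454 in KO_star and 4853 to 6326 in WT_star (0.32, adjusted p = 0.327). Gsta2, a glutathione transferase gene, was at 62.5 to 191.1 with a median of 94.6 in KO_star and 10.6 to 73.5 in WT_star (1.52, adjusted p = 0.349). The ranges of the groups overlapped for all 3. They also overlapped for Filip1, at 32.7 to 49.8 in KO_star and 16.1 to 34.1 in WT_star. For Gsta2 the highest KO_star value was that of KO_star 13, which did not follow WT_star at this gene.

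**Figure D3:**
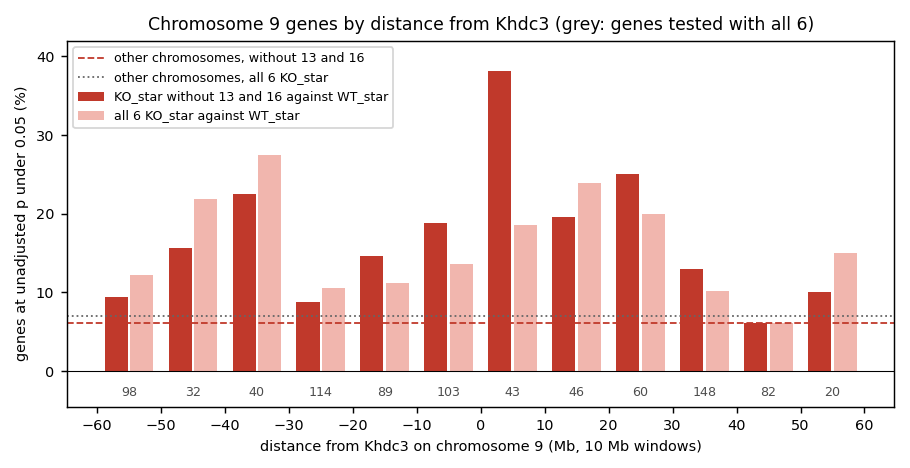
Share of chromosome 9 genes with an unadjusted p under 0.05 in KO_star against WT_star, in 10 Mb windows by distance from Khdc3, without KO_star 13 and 16 (dark bars) and with all 6 KO_star libraries (light bars). Dashed and dotted lines give the shares on the other chromosomes, 6.10% and 6.95%, and the window from 0 to 10 Mb reaches 38.1% without KO_star 13 and 16.

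KO against WT, in the mice of pure ancestry, shares no library with KO_star against WT_star. There the genotype and the ancestry change together. In KO against WT, 467 of 16157 genes changed (2.89% called), 213 higher and 254 lower. Of the 13 genes called in KO_star without KO_star 13 and 16, 8 were also called there, all in the same direction, which is 61.5% of the 13 and 1.72% of the 465 that both fits tested. They were Wdr72, Aph1c, Col6a5, 9430037G07Rik, C920006O11Rik, Gm5869, Gm6548 and Gm48338. Col6a5 was at 57.2 to 101.4 in KO and 16.4 to 30.8 in WT. Every WT library was thus above the WT_star range of 7.73 to 12.9 for Col6a5. The WT range overlapped the 22.5 to 49.7 of KO_star without KO_star 13 and 16. Wdr72 was at 672.9 ± 160.9 (SD, n = 3) in KO and 3.30 ± 2.03 (SD, n = 4) in WT, and Aph1c at 28.7 ± 10.3 in KO and 357.5 ± 49.5 in WT. Zfp949 (log2 fold change -1.36, adjusted p = 0.0512) and Gm13456 (0.37, adjusted p = 0.0644) had the same direction and missed the threshold. Gm47789 was at 2.66 to 10.8 in KO and 6.85 to 42.7 in WT, which overlap (-1.36, adjusted p = 0.442). Rplp1 (-0.01, SE 0.19) and Foxa3 (-0.15, SE 0.16, adjusted p = 0.706) did not pass in KO against WT. Foxa3 was at 1602 ± 244.9 in KO and 1785 ± 279.4 in WT, and both means were above the 1172 ± 143.6 of WT_star (n = 4). The interaction, the KO_star minus WT_star difference less the KO minus WT difference, had an adjusted p of 0.0559 for Foxa3 and 0.177 for Rplp1.

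Of the 35 chromosome 9 genes called in KO against WT, 25 (71.4%) had the same sign in KO_star against WT_star, and 28 (80.0%) without KO_star 13 and 16. On other chromosomes this was 190 of 432 (44.0%) and 198 of 430 (46.05%). The sign shares over all genes tested, called or not, were 49.55% on chromosome 9 and 42.7% elsewhere with all KO_star libraries, and 55.2% and 46.2% without KO_star 13 and 16. The genes called with a log2 difference of at least 1, 20 on chromosome 9 and 209 elsewhere, were also placed for each library between the WT mean (0) and the KO mean (1). For the 7 such genes within 10 Mb of Khdc3 the median place was 0.78, 0.69 and 0.75 in KO_star 12, 14 and 29. Each of these libraries was nearer to KO than to WT for 5 of the 7 genes. The median was 0.40 in KO_star 16 and 0.42 in KO_star 17, each nearer to KO for 3 of the 7. It was -0.02 in KO_star 13 and 0.02 to 0.27 in the WT_star libraries.

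For the 209 genes on other chromosomes the median place was 0.25 to 0.43 in KO_star and 0.26 to 0.52 in WT_star libraries. For the 15 genes on chromosome 19 every library of both groups lay towards KO, at 0.59 to 0.89 in KO_star and 0.74 to 0.9994 in WT_star. For the 29 genes on chromosome 8, KO_star libraries lay at 0.06 to 0.32, WT_star 33 and 34 at 0.17 and 0.21, and WT_star 20 and 21 at 0.57 and 0.63. On chromosome 8 WT_star libraries 20 and 21 were thus nearer to KO than any KO_star library.

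The interaction tests whether the KO_star minus WT_star difference differs from the KO minus WT difference. In KO against WT genotype and ancestry change together, so a call cannot tell an effect of genotype from an effect of ancestry. The interaction was called for 209 of 16157 genes (1.29%), 122 with a positive and 87 with a negative difference, and 10 of them lie on chromosome 9. Without KO_star 13 and 16 it was called for 153 genes, 124 of them among the 209, and without WT_star 33 for 497. The median absolute log2 fold change of the 209 genes was 0.25 in KO_star against WT_star and 0.94 in KO against WT. Over all genes tested these medians were 0.115 and 0.171. The 209 genes were chosen for a gap between these differences, and 159 of them were also called in KO against WT. The gap between their medians is thus in part fixed by the choice. Them7, a thioesterase-family gene, was at 68.2 to 207.5 in KO_star and 92.9 to 161.2 in WT_star, against 288.1, 212.2 and 244.0 in KO and 3.56 to 13.2 in WT. Its difference was 0.08 (SE 0.33) between KO_star and WT_star and 4.82 (SE 0.39) between KO and WT, with an interaction of -4.73 (adjusted p = 0.00014). Capn3, a calcium-dependent protease gene, was likewise at 28.4 to 87.7 in KO_star and 33.003 to 120.8 in WT_star, and at 71.0 to 106.3 in KO and 1.14 to 3.04 in WT. In both genes the KO_star and WT_star libraries overlapped and lay far above WT.

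The steroid hydroxylase gene Cyp17a1 and the arsenic methyltransferase gene As3mt lie close together on chromosome 19. Cyp17a1 was at 463.6 to 1494 in KO_star and 1243 to 3244 in WT_star (log2 fold change -1.01, SE 0.41, adjusted p = 0.621), and at 582.4 to 2018 in KO and 53.6 to 83.8 in WT. As3mt was at 546.0 to 772.7 in KO_star and 658.1 to 918.6 in WT_star, and at 621.5 to 876.6 in KO and 271.2 to 324.3 in WT. For both, the 3 groups with KO ancestors lay above WT, and the interaction was called (-4.97, adjusted p = 0.0014, and -1.52, adjusted p = 0.00023). The P450 gene Cyp2c68 on the same chromosome, whose near relatives may share its reads, also had WT lowest, at 4732 to 5851 in KO_star, 4610 to 5108 in WT_star, 5862 to 6090 in KO and 2116 to 2873 in WT.

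For 6 of the named interaction genes the KO libraries were the low ones. Hmga1b, a chromatin protein gene, was at 70.9 to 121.6 in KO_star, 61.8 to 102.4 in WT_star, 23.1 to 28.5 in KO and 113.3 to 137.8 in WT. Meiob, a meiotic single-strand DNA binding gene, was at 403.4 to 541.3 in KO_star, 265.2 to 641.0 in WT_star, 105.3 to 136.7 in KO and 439.8 to 586.9 in WT. Mtmr7 (interaction 2.35, adjusted p = 0.0011), Abca3 (1.36, adjusted p = 0.0012), Sh3rf1 (1.29, adjusted p = 0.00105) and Fam32a (0.84, adjusted p = 0.0014) had the same order. In KO_star against WT_star the log2 fold changes of these 6 genes were between -0.04 and 0.27.

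Smurf1 and Kdm3a were the genes of the 10 smallest p above that were also called in the interaction. Smurf1 was higher by 0.46 in KO_star over WT_star and lower by 0.36 in KO over WT (log2 fold change -0.36, adjusted p = 0.0607), with an interaction of 0.82 (SE 0.13, adjusted p = 0.0040). Kdm3a had 0.35 and -0.11, with an interaction of 0.46 (adjusted p = 0.0443). The DNA methyltransferase gene Dnmt3a was at 890.4 to 1210 in KO_star and 734.3 to 918.6 in WT_star (0.32, SE 0.10, adjusted p = 0.44), and at 654.3 to 738.0 in KO and 908.9 to 1222 in WT (-0.52, adjusted p = 0.0254). Its interaction was 0.84 (adjusted p = 0.014).

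No member of 49 gene lists of liver metabolism, stress, immunity and cell types was called in KO_star against WT_star with all libraries, and Foxa3 and Rplp1 were the 2 members called without KO_star 13 and 16. Of the 44 lists with at least 5 members tested, 26 had a median log2 fold change above 0 and 18 below. Over all genes tested the median was 0.0007 and 50.2% of genes were above 0. The list values below describe directions, and the lists were chosen with earlier results of these data known.

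All 24 cholesterol synthesis genes and targets of the sterol regulator SREBP2 had a log2 fold change above 0, with and without KO_star 13 and 16, and the medians were 0.24 and 0.24. None was called. With all libraries 2 of 24 had an unadjusted p under 0.05, against 7.33% of all genes in either direction and 4% in the higher direction. Without KO_star 13 and 16 it was 4 of 24, against 6.60% of all genes in either direction. Tm7sf2, a sterol reductase gene, was at 2564 to 3374 in KO_star and 2116 to 2420 in WT_star, with no overlap of the groups (0.28, SE 0.09, adjusted p = 0.434). KO_star 16, the library with acinar RNA, was the highest of the 10 for 20 of the 24 genes. KO_star 13 was the lowest for 12 and WT_star 33, the library with high acute phase RNA, for 11. Without WT_star 33 the median was 0.11, the lowest with 1 library left out, and the highest was 0.34.

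**Figure D4:**
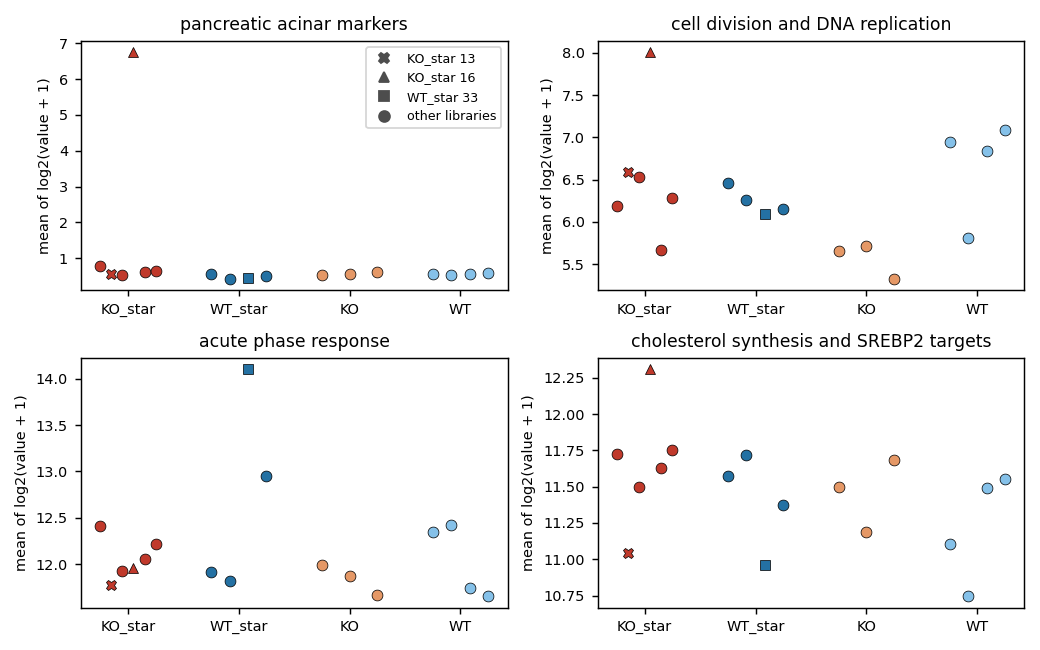
Mean log2(value + 1) over the members of 4 gene lists in each KO_star, WT_star, KO and WT library, 1 point per library. KO_star 16 lies above the other KO_star libraries for acinar markers, cell division and cholesterol synthesis, and WT_star 33 above the other WT_star libraries for the acute phase response.

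Fatty acid and triglyceride synthesis genes had 19 of 25 members above 0, a median of 0.12, and 21 of 25 with a median of 0.17 without KO_star 13 and 16. The summed values of the 26 in the table were 196002 to 270127 in KO_star and 159091 to 198430 in WT_star libraries. Lpin1 and Lpin2, phosphatidate phosphatases that make diacylglycerol, were the members with the smallest p. Lpin1 was at 13427 in KO_star 12 and 1889 to 4795 in the other KO_star libraries, against 837.4 to 1657 in WT_star (1.56, SE 0.46, adjusted p = 0.43). Lpin2 was at 3352 to 6589 in KO_star and 2296 to 3158 in WT_star (0.72, SE 0.18, adjusted p = 0.304). All 6 KO_star libraries were above all 4 WT_star libraries for both genes. DESeq2 called both, with adjusted p of 0.0358 and 0.0303. In KO against WT their log2 fold changes were -1.28 and -0.43.

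Fatty acid oxidation and ketogenesis genes had 34 of 44 members above 0 with a median of 0.10, and this median was -0.0001 without WT_star 33. Ehhadh, the peroxisomal bifunctional enzyme, was at 5050 to 8669 in KO_star and 4150 to 6254 in WT_star (0.48, SE 0.18, adjusted p = 0.578). The peroxisomal oxidase gene Acox2 had the smallest p of the list and the other sign, at 3728 to 4947 in KO_star and 4790 to 5229 in WT_star (-0.24, SE 0.08, adjusted p = 0.469). The same 44 genes had a median of 0.36 in KO against WT, with 4 members called higher.

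Among lists with lower values in KO_star, urea cycle and amino acid breakdown had 9 of 38 members above 0 and a median of -0.09 (-0.05 without KO_star 13 and 16, and -0.11 to -0.064 with 1 library left out). Aass, which starts lysine breakdown, was at 5661 to 7666 in KO_star and 7925 to 9905 in WT_star, with no overlap (-0.44, SE 0.11, adjusted p = 0.295). Bhmt, which remethylates homocysteine with betaine, was at 15206 to 23626 in KO_star and 21408 to 36325 in WT_star (-0.64, SE 0.18, adjusted p = 0.372). Bile acid genes had a median of -0.10, which was -0.18 without WT_star 33. The bile salt export pump gene Abcb11 was at 11899 to 15937 in KO_star and 15315 to 19468 in WT_star (-0.38, SE 0.11, adjusted p = 0.36). The groups overlapped for Bhmt and Abcb11.

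Of the lipoprotein genes, 5 of 28 had an unadjusted p under 0.05 with a higher and 4 with a lower value in KO_star, where the shares over all genes were 4% and 3.34%. Without KO_star 13 and 16 these counts were 2 and 3, and the list median was -0.04 with all libraries and -0.03 without these 2. Apoa1, the main protein of high-density lipoprotein and a chromosome 9 gene, was at 87025 to 132718 in KO_star and 64890 to 90834 in WT_star (0.50, SE 0.13, adjusted p = 0.318). Growth hormone, IGF and insulin signalling genes had 18 of 23 members above 0 and a median of 0.16 (0.12 to 0.24 with 1 library left out). Cux2, a female-biased transcription factor gene of liver, was at 511.2 to 1795 in KO_star and 124.5 to 539.9 in WT_star (1.87, SE 0.49, adjusted p = 0.349). Female-biased genes as a list had a median of 0.04 and male-biased genes of -0.05, and both medians changed sign when single libraries were left out.

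Heat shock genes were lower in KO_star for 16 of 18 members, with a median of -0.24 with and without KO_star 13 and 16. The median was -0.38 without WT_star 33, and -0.12 at the other end with 1 library left out, and none had an unadjusted p under 0.05. The co-chaperone gene Dnaja1 was at 2224 to 2991 in KO_star and 2249 to 3851 in WT_star. The acute phase list had a median of -0.25, and -0.10 without WT_star 33. The acid glycoprotein gene Orm1 was at 4548 to 7790 in KO_star and at 28680 in WT_star 33, 12792 in WT_star 34 and 7324 and 8044 in the other WT_star libraries. The circadian genes had a median of 0.16 (0.095 to 0.24 with 1 library left out), and Per1 was at 260.5 to 1971 in KO_star and 83.5 to 153.7 in WT_star 20, 21 and 33 and 695.1 in WT_star 34 (1.88, SE 0.65, adjusted p = 0.527). The time of day at which livers were taken is not given in the sources used here.

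**Figure D5:**
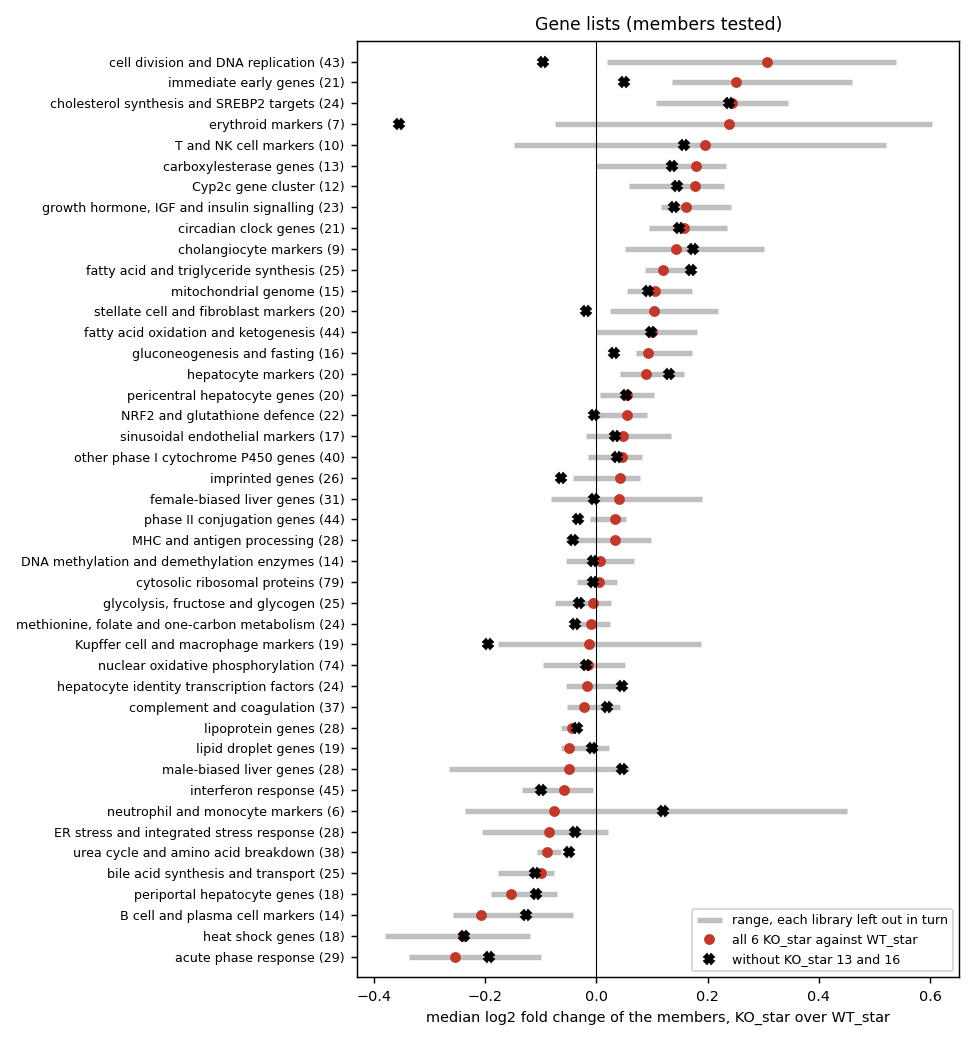
Median log2 fold change of KO_star over WT_star for the 44 gene lists with at least 5 members tested, with all libraries (circles), without KO_star 13 and 16 (crosses) and over each library left out in turn (grey bars). The cholesterol synthesis median lies at 0.24 in both settings, and the cell division median is 0.31 with all libraries and -0.10 without KO_star 13 and 16.

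The cell division list had a median of 0.31 with all libraries, with 41 of 43 members above 0, and of -0.10 with 16 of 43 above 0 without KO_star 13 and 16. Leaving out KO_star 16 alone gave 0.02. Cenpf, a kinetochore gene, was at 309.1 in KO_star 16, 56.8 to 128.1 in the other KO_star libraries and 43.5 to 81.5 in WT_star. Immediate early genes had a median of 0.25 with all libraries, 0.14 to 0.46 with 1 library left out and 0.05 without KO_star 13 and 16. Junb was at 391.7 to 914.5 in KO_star and 168.1 to 564.6 in WT_star (1.07, adjusted p = 0.434).

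Kupffer cell and macrophage markers summed to 16774 to 23561 in KO_star and 15737 to 27577 in WT_star, where the highest was WT_star 33, and their median was -0.01. It was 0.19 without WT_star 33, and -0.20 with 3 of 19 members above 0 without KO_star 13 and 16. Cd163, a macrophage scavenger receptor gene, was at 202.7 to 434.3 in KO_star, 906.8 in WT_star 33 and 94.1 to 202.1 in the other WT_star libraries. T and NK cell markers had a median of 0.19 (-0.15 without WT_star 20), stellate cell markers of 0.10 (-0.02 without KO_star 13 and 16), sinusoidal endothelial markers of 0.05 (0.13 without WT_star 33) and cholangiocyte markers of 0.14 (0.30 without KO_star 14), with none called. In whole liver, fewer cells of a type and less RNA per cell cannot be told apart. Interferon response genes had 15 of 45 members above 0 and a median of -0.06 (-0.13 without KO_star 13), against a median of 0.47 in KO against WT, where 5 were called higher.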

How the data were processed

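Per the labels' protocols, total liver RNA was depleted of ribosomal RNA and made into stranded libraries, 17 in all. The deposited table holds a normalized signal for 27020 genes in each library. Per the submitters' processing notes, cutadapt, HISAT2, DESeq2 and GRCm38 were used, with no versions named. How reads were counted, and with which strand setting, is not given in the sources used here, so a gene and an antisense partner cannot be told apart. Every deposited signal is whole reads divided by 1 size factor per library: 100% of values came out whole at a tolerance of 0.001 reads. The KO_star and WT_star libraries held between 17.6 and 26.4 M (mega) gene reads each, with 1 read worth 0.792 to 1.18. Of the gene IDs, 26963 matched GENCODE release M21, whose GRCm38 positions are used. Intervals and floors of 3 reads cover counting error only.

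The log2(value + 1) of all 17 libraries was fitted with limma (3.58.1, under R 4.3.3) as 4 group means, with variance moderated by trend and robustly (statmod, 1.5.0). Genes at 10 or more in at least 3 libraries were kept. Two-sided p-values were adjusted by Benjamini-Hochberg across every gene tested, with a threshold of 0.05, and fold changes on this scale understate low genes. In the repeat, KO_star 13 and 16 were left out of the fit and the filter. The interaction is the KO_star minus WT_star difference less the KO minus WT difference. All 21 pairs of libraries within KO_star and within WT_star differed by more than sampling noise (chi-square per degree of freedom 11.6 to 113.7), so each counted as 1 sample.

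Alternatives were edgeR 4.0.16 and DESeq2 1.42.0 on the recovered reads (0 and 62 genes called), other pseudocounts, filters and scalings, library weights, only the libraries compared, and each library left out. The code was tested on simulated data.

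The named genes are, of those called, up to 15 higher and 15 lower by size of change with a group mean of at least 100, up to 4 changed or else 2 members per gene list by smallest p, up to 10 called also in KO against WT and 10 in the interaction, up to 6 within 10 Mb of Khdc3, and, where under 10 passed, the 10 of smallest p. Genes that are only predicted, and pseudogenes, are outside this rule. Not every gene it names is described. The libraries, members and lists were chosen with earlier results of these data known.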

Additional observations from a re-analysis of the deposited data

Results flagged for a closer look

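Of 124 groups of 4 to 6 libraries over the 62 genes described, 16 held 1 library far from the others, where chance gives about 1 in 20 of groups not chosen for their values. The library labelled KO_star 13 accounted for 7, of which 6 are in genes described because they were called once it was removed, so that rate does not apply to them. It was high for Aph1c (373.8, other KO_star libraries 26.5 to 156.3), Gm47789 (30.6, others 0 to 3.96) and Gclc, a glutathione synthesis gene 4.65 Mb from Khdc3 (15502, others 5240 to 7333). It was low for Gm5869 (311.5, others 714.2 to 859.4), Gm6548 (311.5, others 471.8 to 554.6), Gm48338 (32.7, others 64.2 to 81.5) and C920006O11Rik (6.34, others 42.4 to 55.9). For Gclc, KO_star 13 lay far above WT_star as well, where the libraries were at 4985 to 5495.

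KO_star 16, the library with acinar RNA, was high for Tm7sf2 (3374, other KO_star libraries 2564 to 2764) and Cenpf (309.1, others 56.8 to 128.1), and low for Orm1 (4548, others 6695 to 7790). KO_star 12 was high for Lpin1 (13427, others 1889 to 4795). WT_star 33 was high for Lcn2 (36288, other WT_star libraries 399.1 to 1067), Junb (564.6, others 168.1 to 224.2) and Cd163 (906.8, others 94.1 to 202.1). WT_star 34 was high for Per1 (695.1, others 83.5 to 153.7), and WT_star 20 was low for Gclc (4985, others 5452 to 5495).

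The KO_star minus WT_star difference differed from the KO minus WT difference, by the limma interaction with Benjamini-Hochberg adjustment, for 15 of the genes described. Effects of genotype and ancestry cannot be told apart in KO against WT. The interaction was above 0 for Smurf1 (0.82), Kdm3a (0.46), Hmga1b (2.26), Meiob (2.23), Mtmr7 (2.35), Abca3 (1.36), Sh3rf1 (1.29), Fam32a (0.84), Dnmt3a (0.84) and Alb (0.86). It was below 0 for Them7 (-4.73), Capn3 (-4.68), Cyp2c68 (-1.09), As3mt (-1.52) and Cyp17a1 (-4.97). For Alb, the albumin gene, the log2 fold change was 0.27 in KO_star over WT_star and -0.59 in KO over WT (interaction adjusted p = 0.0119).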

How the results depend on the processing

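No paired analysis was possible because no library number occurs in more than 1 group. With all KO_star libraries, the count of 0 genes held with edgeR, both pseudocounts, both filters, quantile normalization, equal library totals and only the libraries compared. It was 62 with DESeq2, 13 with library weights, 13 without KO_star 13 and 16, and 0 to 20 with 1 library left out. Without KO_star 13 and 16 the 13 genes became 67 with DESeq2, 33 with library weights, 8 with only the libraries compared (6 of them among the 13), and 2 to 32 with 1 library left out. KO against WT had 467 genes, and 865 with DESeq2, 1280 with library weights, 728 with only the libraries compared and 148 to 388 with 1 library left out. The interaction had 209 genes, and 695 with DESeq2, 866 with library weights, 153 without KO_star 13 and 16 and 73 to 497 with 1 library left out, lowest without KO 30 and highest without WT_star 33. With equal library totals the split turned to 334 higher and 187 lower in KO against WT, and to 79 positive and 153 negative in the interaction. The cause of these shifts was not tested. Only the libraries compared was not run for the interaction, as all 4 groups enter it.

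Over the 62 genes described, 1273 of 1298 values kept their sign, and 24 genes gained a call under at least 1 alternative. The 25 changes of sign were in Them7, Capn3, Hmga1b, Meiob, Abca3, Csad and Cd163, none of which was called in KO_star against WT_star. The list medians without single libraries and the values of the 2 libraries left out were added after seeing the data. Khdc3, at 4 reads or fewer in a library, was not detectable as a difference at this depth.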
